A study of Mus musculus with 8 samples.

Results

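The mitochondrial chromosome of the mouse carries 13 protein-coding genes, all of them for subunits of the respiratory chain or the ATP synthase. Every such gene listed in the deposited table was taken, which gave 7 members among 9307 listed genes: mt-Nd1, mt-Nd2, mt-Nd4, mt-Nd5 and mt-Nd6 of complex I, mt-Cytb of complex III and mt-Co1 of complex IV. They were measured in mouse embryonic fibroblasts (MEF), connective tissue cells of the embryo, carrying SV40 T antigen, a viral protein under which cultured cells go on dividing. The cells had been stably transduced with pBabe vectors for wild-type METTL1 and WDR4 (OE) or with an empty vector (EV). METTL1 is the catalytic and WDR4 the partner subunit of an enzyme that places 7-methylguanosine on tRNAs. Both kinds of cells had been kept in puromycin and G418, with no antibiotic during expansion, and both were treated with cycloheximide before lysis. Ribosome-protected fragments (RPF, the stretches of mRNA shielded by ribosomes from nuclease) and input RNA were sequenced from each, with 2 libraries per group: OE RPF, EV RPF, OE input and EV input. The labels speak of stable clones and do not say that replicates are separate cultures, so p-values measure only how far these libraries differ among themselves, which may be technical variation. A difference between clones cannot be told apart from the effect of the vectors.

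Mitochondrially encoded mRNAs never leave the organelle. They are transcribed from both strands of the circular genome as long precursors, cut out mostly at the flanking tRNAs, and translated by mitochondrial ribosomes with tRNAs that the same genome encodes. Cycloheximide stops cytosolic ribosomes and does not act on mitochondrial ones. The proteins join complexes whose other subunits come from nuclear genes, are made on cytosolic ribosomes and are imported.

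The coding sequences show how these mRNAs differ from cytosolic ones. The first 30 bases of each gene, from the GENCODE transcripts on build GRCm38, are shown with the start codon in capitals, because the codon is not always ATG. The mRNA of mt-Nd4 also carries mt-Nd4l, whose end overlaps its start by 7 bases.
mt-Nd1: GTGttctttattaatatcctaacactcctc
mt-Nd2: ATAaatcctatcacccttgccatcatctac
mt-Nd4: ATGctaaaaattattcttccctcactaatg
mt-Nd5: ATCaatattttcacaacctcaatcttatta
mt-Nd6: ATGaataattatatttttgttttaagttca
mt-Cytb: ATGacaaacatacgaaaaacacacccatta
mt-Co1: ATGttcattaatcgttgattattctcaacc
The genes lie on chromosome M, from 2751 to 3707 (mt-Nd1), 3914 to 4951 (mt-Nd2), 5328 to 6872 (mt-Co1), 10167 to 11544 (mt-Nd4), 11742 to 13565 (mt-Nd5) and 14145 to 15288 (mt-Cytb) on the plus strand, and from 13552 to 14070 (mt-Nd6) on the minus strand. mt-Nd6 is the only one of the 13 encoded on that strand. It is also the only member with more G than C in its mRNA, 28.1% G and 5.97% C, while C made up 23.8% (mt-Co1) to 27.8% (mt-Nd2) of the other 6. mt-Nd5 and mt-Nd6 overlap tail to tail by 14 bases, where reads of the pair cannot be told apart without strand, and the sources used here do not give the treatment of strand.

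Nuclear copies of mitochondrial DNA limit what short reads can be assigned. Of all 28-base stretches of a gene, those absent from every other annotated gene made up 100% for mt-Nd1, 90.7% for mt-Cytb, 89.6% for mt-Nd6, 84.4% for mt-Nd2, 81.0% for mt-Nd5, 37.2% for mt-Nd4 and 33.3% for mt-Co1. For mt-Nd4, 62.8% of the stretches recur in the pseudogene Gm28439 on chromosome 1, and for mt-Co1 49.3% recur in Gm13340 on chromosome 2 and 29.8% in Gm29216 on chromosome 1. Values of mt-Nd4 and mt-Co1 are therefore uncertain as absolute levels, since the sources used here do not say how reads with several matches were counted. The other 6 protein-coding genes of the chromosome are not analysed here. Their unique share was 0% for mt-Co2 and between 0.132% and 1.87% for mt-Co3, mt-Atp6, mt-Nd4l and mt-Nd3, but 91.0% for mt-Atp8, which overlaps mt-Atp6 by 43 bases.

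Listed genes held 526699 to 864147 reads per OE RPF library, 618526 and 707344 per EV RPF library, 294367 and 357305 per OE input library, and 365962 and 371520 per EV input library. Values below are the authors' size-factor-normalized reads. The targeted genes did not pass the test: Mettl1 had values of 40.1 and 22.4 in OE RPF, 25.7 and 25.6 in EV RPF, 33.7 and 16.0 in OE input, and 16.7 and 14.0 in EV input, and Wdr4 had 25.8 and 24.2, 15.2 and 15.1, 24.1 and 42.6, and 16.7 and 26.8 in the same groups. Libraries of OE and EV overlapped for Mettl1 in RPF and in input and for Wdr4 in input, and did not overlap for Wdr4 in RPF. The sources used here do not say which species' METTL1 and WDR4 the vectors carried. These values of the mouse genes may therefore not measure the overexpression. Of 14 fibroblast markers 12 were listed, collagens and vimentin among them. Of markers of other cell types, 0 of 4 endothelial, 0 of 5 muscle, 1 of 5 epithelial (Krt18), 1 of 5 leukocyte (Csf1r), 1 of 4 adipocyte (Fabp4) and 3 of 5 neural genes (Nes, Map2 and Tubb3) were listed.

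The 7 mRNAs were abundant in input RNA and scarce among the protected fragments, in both kinds of cells. Pooled over both libraries, they held 567 reads in OE RPF against 18716 in OE input, and 298 reads in EV RPF against 19810 in EV input. The normalized RPF value of the 7 summed was 1.40% of their input value in OE cells and 0.820% in EV cells, while the median listed gene stood at 101% in either genotype. In limma's test on log2(value + 1), fitted to all 8 libraries and all listed genes with Benjamini-Hochberg adjustment and a threshold of 0.05, all 7 were lower in RPF than in input. That held in OE cells, where 19.0% of all listed genes were lower, and in EV cells, where 19.1% were. The median of the 7 log2 differences was -5.62 in OE cells and -6.26 in EV cells, beside 0.02 for all genes in each.

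**Figure D1:**
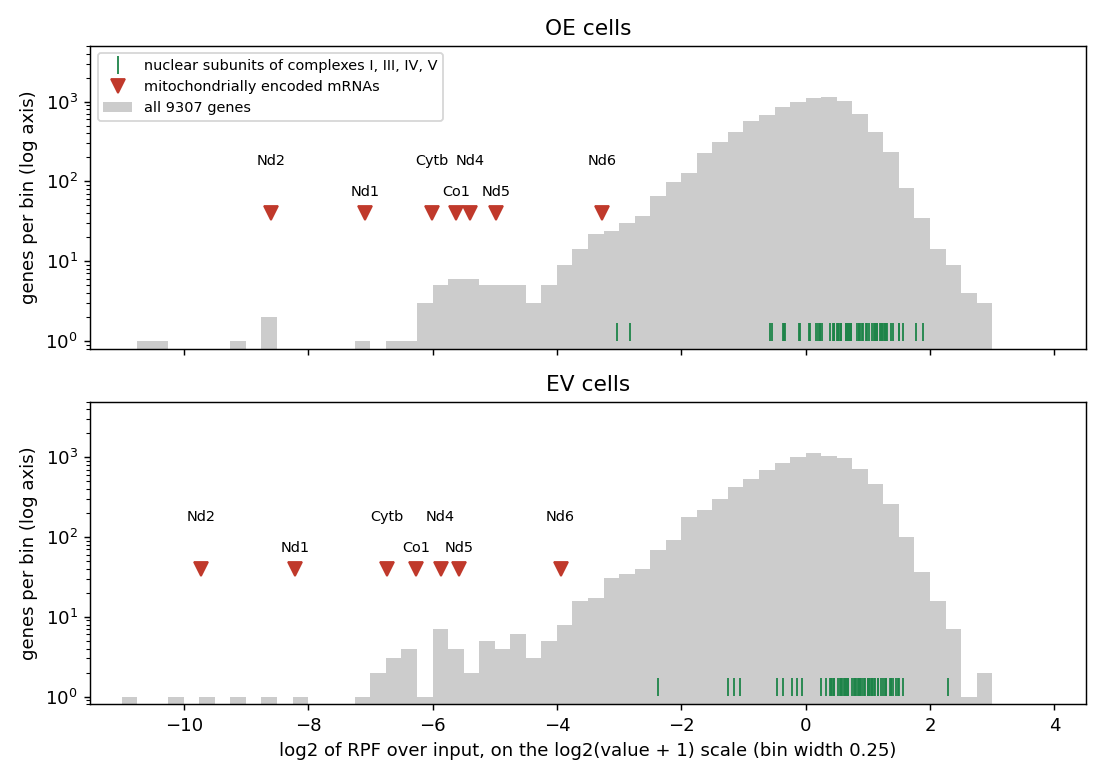
Log2 of RPF over input (horizontal axis) for all listed genes as a histogram with a logarithmic vertical axis, in OE cells (upper panel) and EV cells (lower panel). Red triangles mark the 7 mitochondrially encoded mRNAs, from -8.60 to -3.27 in OE cells and from -9.72 to -3.94 in EV cells, and green ticks mark 70 nuclear-encoded subunits of complexes I, III, IV and V, whose medians are 0.73 and 0.86.

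The members did not share one depth of depletion. mt-Nd2, an antiporter-like membrane subunit of complex I, stood lowest, at -8.60 ± 0.20 in OE cells and -9.72 ± 0.20 in EV cells (log2 difference ± limma SE), rank 5 and rank 3 from the bottom of 9307 genes. mt-Nd1, the subunit next to the quinone site, followed at -7.08 and -8.21, rank 6 in both genotypes. mt-Nd1 is the member whose 28-base stretches are all absent from other annotated genes. The part of copies outside the annotation and of inexact matches in its value was not tested. mt-Cytb, the quinone-oxidizing subunit of complex III, was at -6.02 and -6.73, and mt-Co1, the catalytic subunit of cytochrome c oxidase, at -5.62 and -6.26. mt-Nd4 (-5.40 and -5.87) and mt-Nd5 (-4.98 and -5.57), the other antiporter-like subunits of complex I, stood higher than mt-Nd2. mt-Nd6, encoded on the other strand, was closest to the cytosolic genes, at -3.27 ± 0.27 in OE cells and -3.94 ± 0.27 in EV cells, rank 95 and rank 55. The order of the 7 was the same in OE and EV cells. Genes of cytosolic proteins with similar values, chosen after their values were seen, included Actg1 (-6.72 in OE cells and -7.07 in EV cells) and Gapdh (-6.22 and -6.88). Values this low were thus not particular to mitochondrial genes. The unique share of sequence was not computed for Actg1 and Gapdh.

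The genes with the highest input level had the lowest RPF per input. Per kilobase of gene, the mean normalized reads in OE input were 3488 for mt-Nd2, 2652 for mt-Nd1, 2416 for mt-Cytb, 1610 for mt-Co1, 821 for mt-Nd5, 393 for mt-Nd4 and 233 for mt-Nd6. The order was the same in each of the 4 input libraries, and the EV input means were 3636, 2326, 2194, 1480, 731, 296 and 244. Neighbours in the order kept their places in every input library, and mt-Nd6, the one gene of its strand, came last. In RPF the order per kilobase was another: mt-Cytb (37.2 in OE RPF, 21.0 in EV RPF), mt-Co1 (32.0 and 18.7), mt-Nd5 (25.6 and 15.0), mt-Nd6 (22.7 and 13.6) and mt-Nd1 (18.6 and 7.18) stood above mt-Nd2 (8.68 and 3.36) and mt-Nd4 (8.67 and 4.34). Neighbours changed places between RPF libraries, except that mt-Nd2 and mt-Nd4 held the last 2 places in all 4. Across the 7 genes in EV cells, Spearman's rho between input level per kilobase and RPF per input was -0.964, a description only, since the input value enters both quantities. With length counted only over unique sequence, a choice made after the data were seen, mt-Co1 moved to the top of both orders and rho was -0.714. In that setting mt-Nd4 left the last 2 places of the RPF order. By group means it stood at place 5 and mt-Nd1 at place 6, in OE RPF and in EV RPF.

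The make-up of the mitochondrial reads shifted accordingly. mt-Nd2 supplied 3.11% to 6.15% of the reads on the 7 genes in the 4 RPF libraries, against 25.4% to 30.8% in the 4 input libraries. mt-Nd5 supplied 24.1% to 27.4% in RPF against 10.2% to 11.5% in input, and mt-Nd6 supplied 5.59% to 8.40% against 0.771% to 1.21%. The shares of 6 of the 7 genes did not overlap between RPF and input libraries (exact permutation test of 4 against 4 libraries, two-sided, p = 0.0286 for each, the smallest this design allows, and 0.0333 after Benjamini-Hochberg adjustment over the 7). The exception was mt-Cytb, with 17.6% to 27.4% in RPF against 18.8% to 21.3% in input (exact permutation p = 0.371, adjusted p = 0.371). The shares are parts of a whole within each library, so a lower share of 1 gene raises the others. The p-values of the 6 genes are therefore not separate results, and such shares are not defined for other listed genes. Between OE RPF and EV RPF the shares overlapped for all 7.

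**Figure D2:**
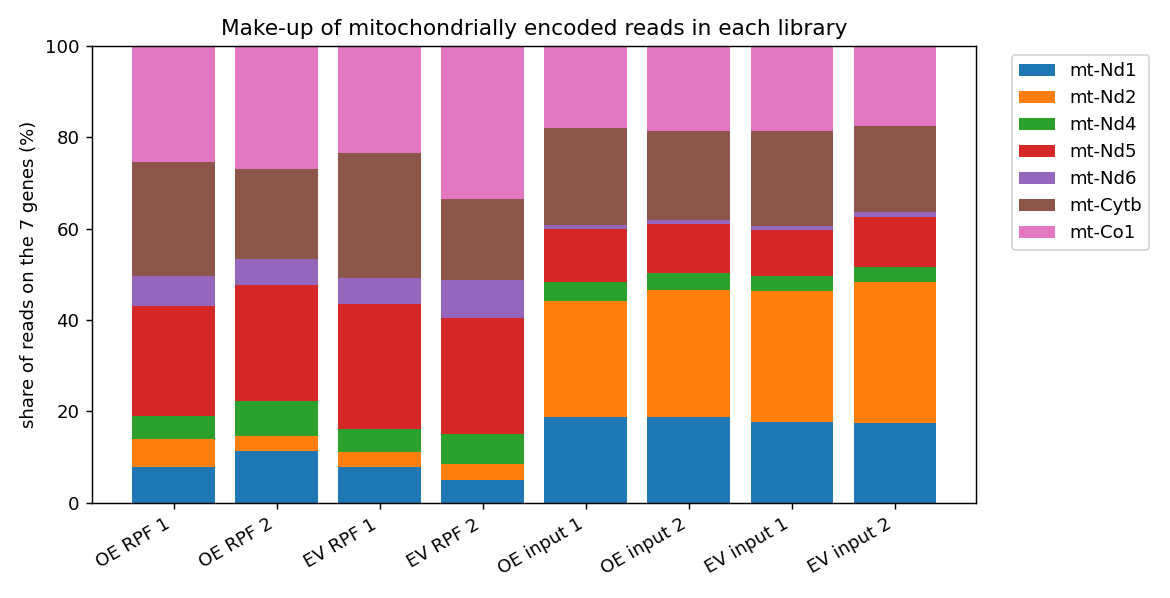
Share of the reads on the 7 mitochondrially encoded genes (percent, vertical axis) that fell on each gene, 1 bar per library, RPF libraries on the left and input libraries on the right, OE before EV in each. The bands of mt-Nd1 and mt-Nd2 are narrower and those of mt-Nd5 and mt-Nd6 wider in the RPF bars, and the shares of OE RPF and EV RPF libraries overlap for all 7 genes.

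Against that low level, RPF of the mitochondrially encoded mRNAs were higher in OE than in EV cells. For 7 of 7 genes the lower OE RPF library exceeded the higher EV RPF library, a pattern that 21.9% of all listed genes showed, and 6 of 7 passed limma's test, beside 0.720% of all listed genes called higher. The median log2 fold change of the 7 was 0.85, beside -0.002 for all genes. RPF of the 7 summed were 1.84 times as high in OE cells, from 567 pooled reads in OE RPF and 298 in EV RPF (exact 95% interval 1.60 to 2.13, counting error only). An exact two-sided permutation test of the 7 genes' share of reads, 2 libraries against 2, gave p = 0.333, the smallest this design allows. In such bulk libraries, more cells of a kind and more RNA per cell cannot be told apart.

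Among complex I genes, mt-Nd1 had 15.9 and 19.8 normalized reads in OE RPF, against 9.23 and 4.52 in EV RPF. The groups were well apart, and the gene rose by a log2 fold change of 1.32 ± 0.18 (SE; limma, adjusted p = 1.04e-04). mt-Nd2 had 12.6 and 5.39 in OE RPF, against 3.96 and 3.01 in EV RPF. Its second OE library stood close to the EV libraries, and the change of 1.06 ± 0.20 (limma, adjusted p = 0.00551) rests on 29 pooled reads in OE RPF and 10 in EV RPF. mt-Nd4 had 10.4 and 13.5 in OE RPF, against 5.93 and 6.02 in EV RPF (0.88 ± 0.19, limma, adjusted p = 0.0122). mt-Nd5 was the best covered of this complex, with 49.4 and 44.0 in OE RPF, against 32.3 and 22.6 in EV RPF (0.76 ± 0.14, limma, adjusted p = 0.00269). The exception among the 7 was mt-Nd6, with 13.7 and 9.88 in OE RPF, against 6.59 and 7.53 in EV RPF. Its libraries did not overlap, and its log2 difference of 0.65 ± 0.27 did not pass (limma, adjusted p = 0.345).

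Both other complexes were represented by a central catalytic subunit. mt-Cytb had 51.0 and 34.1 in OE RPF, against 32.3 and 15.8 in EV RPF. The lower OE library was barely above the higher EV library, and the change was 0.85 ± 0.19 (limma, adjusted p = 0.0175). mt-Co1 had 52.1 and 46.7 in OE RPF, against 27.7 and 30.1 in EV RPF. Its replicates lay closest together relative to the gap, with a change of 0.75 ± 0.11 (limma, adjusted p = 2.28e-04).

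**Figure D3:**
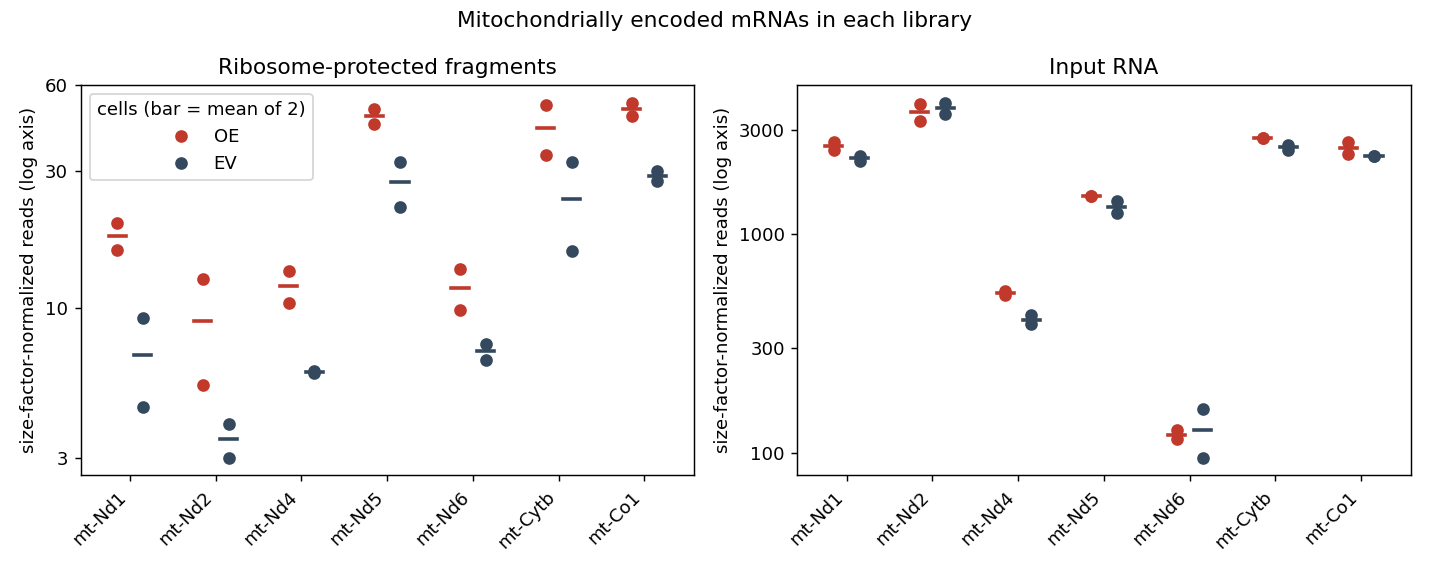
Size-factor-normalized reads (logarithmic vertical axes) of the 7 genes in every RPF library (left panel) and input library (right panel), with OE in red left of EV in dark blue and a bar at the mean of 2 libraries. In RPF all OE points lie above the EV points of the same gene, from 5.39 to 52.1 against 3.01 to 32.3, while in input the points of mt-Nd2 and mt-Nd6 overlap.

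How firmly these calls stand differed among the genes. The fit shares 1 spread between input and RPF libraries. Its trend runs on the mean of all 8, which for these genes lies far above their RPF level. For all 7 genes limma's SE in RPF was below the counting error of the pooled RPF reads alone. The SE was 0.20 against 0.53 for mt-Nd2, 0.18 against 0.38 for mt-Nd1 and 0.11 against 0.20 for mt-Co1. The 2 were closest for mt-Cytb, at 0.19 against 0.21. The SEs and adjusted p-values given above for RPF therefore understate the uncertainty. Of the alternatives below, only the fit to the RPF libraries alone drops this sharing. edgeR, DESeq2 and limma voom do not use limma's trend, but they also estimate 1 spread per gene from all 8 libraries. The others reuse the shared spread and trend. In limma fitted to the 4 RPF libraries alone, 0 of 7 passed, with adjusted p from 0.0548 for mt-Co1 and 0.0729 for mt-Nd1, and DESeq2 also called 0, with adjusted p from 0.0623 for mt-Co1. edgeR's quasi-likelihood test called 4 (mt-Nd1, mt-Nd5, mt-Cytb and mt-Co1) and limma voom 3 (mt-Nd5, mt-Cytb and mt-Co1). Of all 9307 listed genes, in either direction, limma on the RPF libraries alone called 162, DESeq2 25, edgeR 301 and limma voom 319. Over 13 alternative settings mt-Co1 passed in 11, mt-Nd1 and mt-Nd5 in 10, mt-Cytb in 9, mt-Nd2 in 7, mt-Nd4 in 5 and mt-Nd6 in 0, and every estimate stayed above 0. Exact 95% intervals of the pooled read ratio of OE to EV RPF were 1.32 to 2.31 for mt-Co1, 1.28 to 2.28 for mt-Nd5, 1.35 to 2.46 for mt-Cytb, 1.45 to 4.38 for mt-Nd1, 1.33 to 6.46 for mt-Nd2, 1.05 to 3.70 for mt-Nd4 and 0.983 to 3.18 for mt-Nd6. Without the second EV RPF library 2 of 7 passed (mt-Nd1 at 0.87 and mt-Co1 at 0.81), and mt-Cytb was at 0.36. Without the first OE RPF library 4 passed and mt-Nd2 was at 0.52, and without the second OE RPF library mt-Nd2 was at 1.61. Without the first EV RPF library mt-Cytb was at 1.35.

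**Figure D4:**
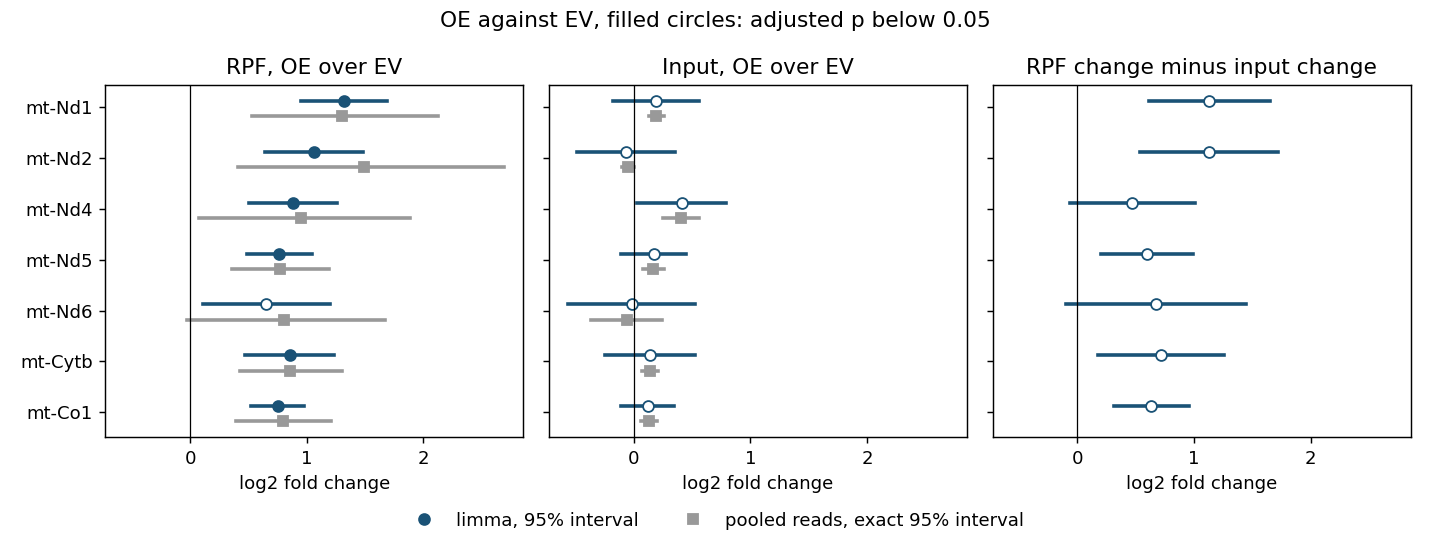
Log2 fold change of OE over EV (horizontal axes) for each gene in RPF (left), input (middle) and RPF minus input (right). Circles are limma estimates with 95% intervals, filled where the adjusted p is below 0.05 (6 genes, all in RPF), and grey squares are ratios of pooled reads with exact 95% intervals, wider than limma's for every gene in RPF and narrower in input.

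Some marker genes were not level between OE and EV libraries either. Krt18, the 1 epithelial marker listed, had 12.6 to 18.9 in OE RPF, against 3.76 to 6.59 in EV RPF. The 5 proliferation markers summed to 996 to 1008 in OE RPF, against 1170 to 1204 in EV RPF, and to 824 to 873 in OE input, against 991 to 1051 in EV input. The 12 fibroblast markers summed to 10230 to 10827 in OE RPF, against 9572 to 9626 in EV RPF, and the 3 neural markers to 93.4 to 96.0, against 73.0 to 81.8. Csf1r had 0.898 to 2.74 in OE RPF, against 4.52 to 6.59 in EV RPF, but 6.42 to 9.32 in OE input, against 2.55 to 5.13 in EV input. Fabp4 had 7.18 to 10.4 in OE RPF, against 10.6 to 15.1 in EV RPF, and 2.66 to 3.21 in OE input, against 6.37 to 6.42 in EV input. In input, Krt18 had 7.99 to 8.03 in OE cells, against 6.37 to 6.42 in EV cells, the fibroblast markers summed to 5876 to 6123, against 5083 to 5305, and the neural markers to 89.9 to 94.5, against 73.2 to 81.5. The part of these in the mitochondrial result was not tested. Likewise, the table holds neither fragment lengths nor positions, and whether the reads counted as RPF on these genes were fragments within mitochondrial ribosomes was not tested.

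Input RNA of the same genes differed less. None of the 7 passed limma's test, in a comparison that called 1.50% of all listed genes, and 1 of 7 had an unadjusted p under 0.05, as did 13.4% of all listed genes. edgeR and DESeq2 called 0 and limma voom called 1, where they called 57, 15 and 49 of all 9307 listed genes. The 7 log2 fold changes ran from -0.06 to 0.41 with a median of 0.14, beside -0.004 for all genes. The highest was mt-Nd4, with 552 and 530 in OE input, against 389 and 425 in EV input (0.41 ± 0.19, limma, adjusted p = 0.330). Its libraries did not overlap, and limma voom placed it at 0.40 with an adjusted p of 0.0433. Both OE input libraries lay above both EV input libraries for 5 of 7 genes, a pattern in 21.2% of all listed genes. mt-Nd1 had 2423 and 2653 in OE input, against 2176 and 2277 in EV input. The overlapping genes were mt-Nd2, with 3306 and 3934 in OE input, against 3541 and 4007 in EV input, and mt-Nd6, with 116 and 126 in OE input, against 94.99 and 158 in EV input.

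The change in RPF beyond the change in input, listed as translational efficiency (TE), was above 0 for all 7 genes and passed limma's test for none. Over all listed genes 0% were called higher, with 508 (5.46%) at an unadjusted p under 0.05, 5 of the 7 members among them. DESeq2 and limma voom also called 0 listed genes, and edgeR called 1, which was not a member. limma's estimates were 1.13 ± 0.25 for mt-Nd1 (adjusted p = 0.395), 1.13 ± 0.29 for mt-Nd2 (0.526), 0.71 ± 0.26 for mt-Cytb (0.899), 0.67 ± 0.38 for mt-Nd6 (0.916), 0.63 ± 0.16 for mt-Co1 (0.401), 0.59 ± 0.19 for mt-Nd5 (0.899) and 0.47 ± 0.26 for mt-Nd4 (0.916). The median of 0.67 stood beside -0.01 for all genes. limma's SEs and p-values for TE rest on the same shared spread as those for RPF. For every member but mt-Cytb the SE was below the counting error of the pooled RPF reads alone, at 0.29 against 0.53 for mt-Nd2. They therefore understate the uncertainty for those genes as well. In the authors' deposited table the log2 fold changes of TE were 1.54 for mt-Nd2, 1.12 for mt-Nd1, 0.84 for mt-Nd6, 0.69 for mt-Cytb, 0.67 for mt-Co1, 0.60 for mt-Nd5 and 0.55 for mt-Nd4. The authors' deposited table gives unadjusted p-values of 0.00598 for mt-Nd2, 0.00682 for mt-Nd1, 0.00947 for mt-Co1 and 0.0265 for mt-Nd5, and of 0.103 to 0.252 for the other 3. The RPF change and TE share the RPF libraries and are not separate evidence. The estimates moved with the library left out. mt-Nd2 was at 1.67 without the second OE RPF library and at 0.58 without the first. mt-Nd1 was at 1.58 and mt-Cytb at 1.21 without the first EV RPF library, and at 0.69 and 0.22 without the second. Each of these fits keeps 1 library in a group, so calls from them are not read as results.

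The nuclear partners of these proteins behaved otherwise. Of 77 listed nuclear subunits of complexes I, III, IV and V, 70 were measured. In RPF against input, 49 of them were higher and 3 lower in OE cells (limma), where 17.8% of all listed genes were higher and 19.0% lower. In EV cells 52 were higher and 3 lower (limma), where 18.5% of all listed genes were higher and 19.1% lower. The 7 mitochondrial genes were all lower. The ratio of the 7 mitochondrial genes to the 70 nuclear subunits, in normalized reads, was 0.0230 and 0.0188 in OE RPF, against 2.54 and 2.66 in OE input. It was 0.0119 and 0.00948 in EV RPF, against 2.26 and 2.41 in EV input. RPF and input libraries were far apart (log2 difference -7.37, exact permutation test of 4 against 4 libraries, two-sided, p = 0.0286, the smallest possible). Both OE RPF values lay above both EV RPF values, by 0.97 on the log2 scale, and both OE input values above both EV input values, by 0.16. With 2 libraries against 2 the exact two-sided p was 0.333 in each case, the smallest this design allows.

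Between OE and EV cells the calls among nuclear subunits in RPF were near the background. In RPF 0 of 70 were higher and 1 was lower by limma, where 0.956% of all listed genes were called in either direction. At an unadjusted p under 0.05 there were 6 of 70, beside 10.2% of all listed genes, and the median was -0.003. edgeR called 0 higher and 2 lower, beside 301 of all 9307 listed genes in either direction. The 1 was Atp5b, the catalytic beta subunit of the ATP synthase, with 1089 and 1187 in OE RPF, against 1666 and 1521 in EV RPF. It fell by 0.49 ± 0.08 on the log2 scale (limma, adjusted p = 0.00122), and in input by 0.40 ± 0.08 (limma, adjusted p = 0.00820). Ndufa5, an accessory subunit of complex I, had 61.0 and 74.5 in OE input, against 34.7 and 42.0 in EV input, and rose by 0.81 ± 0.18 (limma, adjusted p = 0.0167). edgeR called 1 input gene among the 70, a lower one, beside 57 of all 9307 listed genes in either direction. In input 16 of 70 had an unadjusted p under 0.05 by limma, beside 13.4% of all listed genes. In TE 10 of 70 had one, beside 5.46%. Both of these shares lay above those of all listed genes. The nuclear subunits together took 1.88% and 1.95% of reads in OE RPF, against 2.12% and 2.03% in EV RPF, while the mitochondrial genes took 0.0433% and 0.0366%, against 0.0253% and 0.0192%.

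The lists of the machinery that expresses mitochondrial mRNAs held no call between OE and EV cells by limma. With 0.956% of all listed genes called in RPF and 1.50% in input, lists of this size hold few calls or none at the background rate. Of 76 mitochondrial ribosomal proteins 0 passed in RPF, with 2 at an unadjusted p under 0.05, a median of 0.08 and 1 called higher by edgeR. Their share of reads was 0.553% and 0.575% in OE RPF, against 0.545% and 0.538% in EV RPF. None passed in RPF among 16 translation and membrane insertion factors (1 at an unadjusted p under 0.05), 20 mitochondrial aminoacyl-tRNA synthetases (2), 11 genome maintenance and transcription genes (0), 33 RNA processing and stability genes (1) and 4 complex II subunits (1), and edgeR called 0 in each. In input limma and edgeR called 0 in the same 6 lists, with 8 of the ribosomal proteins and at most 2 genes of each other list at an unadjusted p under 0.05, beside 13.4% of all listed genes (10.2% in RPF).

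Among direct partners, Tfam, the packaging and transcription factor of the mitochondrial genome, had 34.0 and 35.9 in OE RPF, against 35.6 and 45.9 in EV RPF. Polrmt, the mitochondrial RNA polymerase, had 9.88 and 11.7 in OE RPF, against 17.8 and 11.3 in EV RPF. Both pairs of groups overlapped. Lrpprc, which stabilizes mitochondrial mRNAs, had 166 and 184 in OE RPF, against 194 and 177 in EV RPF, and in input 144 and 157 in OE cells, against 130 and 124 in EV cells (0.25 ± 0.13, limma, adjusted p = 0.422). Taco1, the translational activator of mt-Co1, had 13.7 and 12.6 in OE RPF, against 13.2 and 9.79 in EV RPF. Oxa1l, which inserts the new proteins into the inner membrane, was the nearest to the threshold: it had 11.2 and 24.0 in OE input, against 37.2 and 33.1 in EV input (-1.05 ± 0.29, limma, adjusted p = 0.0680). Its RPF values were 34.6 and 33.2 in OE cells, against 34.9 and 42.2 in EV cells (-0.17 ± 0.29, limma, adjusted p = 0.888). Tufm, the mitochondrial elongation factor, had at most 2.19 in any RPF library and 11.5 to 19.3 in input, and its RPF difference was 0.53 ± 0.51 (limma, adjusted p = 0.803).

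The genes most like the sum of the 7 over the 8 libraries were Eif4g2, Zfp106, Actg1, Prrc2a and Usf3 (Pearson's r from 0.997 to 0.999 on the log2 scale, among 7157 genes with a mean value of at least 10). All 8 points share the gap between RPF and input, which sets these values. With the mean of each library type subtracted, the 5 genes were Suco, Rps27a, Prkd3, Tmem183a and Mrps10, a protein of the small mitochondrial ribosomal subunit (r from 0.955 to 0.983). Each r is a description over 8 libraries, and the genes were picked as the highest of those screened.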

How the data were processed

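The members and lists were chosen with earlier results of these data known. The submitters' processing notes name Bowtie and the build mm10. The Bowtie version, counting program, annotation release and handling of strand and of multiple matches were not given in the sources used here (labels and files). The authors deposited 1 signal value per gene and library, size-factor-normalized reads, together with a log2 fold change of TE and an unadjusted p-value per gene. Of 9309 lines 2 were blank and left out. Within each library all values were whole multiples of the lowest one (tolerance 1e-06), so whole reads were recovered for 100% of values. The deposited log2 fold changes and p-values differed from a DESeq2 interaction test on these reads by at most 2.18e-05 and 7.47e-06. No listed gene has 0 reads in any library, so the table has already passed a filter on low values, and genes without such reads are not analysed here.

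Identifiers were matched to GENCODE release M21 on GRCm38 without version, and 9306 of 9307 matched. The annotated transcripts were searched for shared 28-base stretches on both strands, and no genome sequence was used. limma 3.58.1 in R 4.3.3 was fitted to log2(value + 1) of all 8 libraries with 4 group means and a mean-variance trend, with no filter, with two-sided p-values and Benjamini-Hochberg adjustment over 9307 genes. Fold changes on that scale understate changes of low values. Alternatives were edgeR 4.0.16, DESeq2 1.42.0 and voom on recovered reads, fits to the compared libraries alone, another scaling, pseudocounts of 0.5 and 5, a mean value of at least 10, a replicate block and leaving out each library. limma's fit was also run on simulated reads for OE against EV, in input and in RPF. Changed genes were drawn at random and all genes had an equal spread, so that run does not show how the test behaves for the members. Read ratios have exact conditional binomial intervals at 95%, which cover counting error only, since reads without molecular identifiers are not independent molecules. All members were named. From the nuclear lists, genes past the threshold were named, up to 4 per list and comparison, and otherwise 6 chosen partners.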

Additional observations from a re-analysis of the deposited data

How the results depend on the processing

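The lower RPF than input held for 7 of 7 genes in both genotypes under all alternatives run. The count of 6 of 7 higher in OE RPF was 0 in the 4 RPF libraries alone, 0 by DESeq2 and 3 by limma voom, and 2 to 5 with 1 library left out. The input count of 0 became 1 by limma voom. The TE count stayed at 0 in every fit to all 8 libraries, and every TE estimate stayed above 0 with 1 library left out. A fit of TE to the compared libraries alone does not apply. Of the 230 genes in all nuclear lists together, edgeR called 1 in input and 3 in RPF, beside 2 and 1 by limma. Over all 9307 listed genes edgeR called 57 in input and 301 in RPF, and limma 140 and 89. The input differences of mt-Nd2 (-0.06) and mt-Nd6 (-0.02) changed sign without the first OE library (0.063 and 0.046) and without the second EV library (0.026 and 0.35), and ran from -0.19 to 0.063 and from -0.38 to 0.35 with 1 library left out. The cause of these moves was not tested, apart from the fewer libraries. The ratio of mitochondrial read shares, OE over EV, was 1.79 in RPF and 1.06 in input, and 1.58 to 2.08 and 1.02 to 1.11 with 1 library left out. With all libraries the exact two-sided permutation p of the shares was 0.333 in RPF, the smallest possible, and 0.667 in input.

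Whether equal replicate numbers pair the libraries is not known. The deviations of such libraries from the group means correlated at -0.0908 to 0.0772 over 2387 genes. These values cannot exclude a pairing, since each deviation also holds counting error. With the replicate block 6 of 7 genes passed in RPF, 0 in input and 0 in TE, and 7 in RPF against input in each genotype. Pooled RPF reads per gene and genotype were 10 to 147, which sets the width of the counting intervals.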
